A study of Mus musculus with 8 samples.

Results

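Fc receptors let immune cells sense antibody bound to a target, and 7 mouse genes of this system are described here across 8 maps of open chromatin in microglia, the brain's own macrophages. They are the IgG receptor genes Fcgr1, Fcgr2b, Fcgr3 and Fcgr4, the adaptor genes Fcer1g and Tyrobp, and the receptor gene Clec5a, which signals through such an adaptor. They make up 7 of 21887 protein-coding genes in the RefSeq annotation of assembly GRCm38.p6, whose coordinates are those of mm10. The genes were proposed with the presence, number and strength of their peaks in FGR and Ctrl libraries already known. Differences between FGR and Ctrl at these genes are therefore given as descriptions without a test.

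ATAC-seq (assay for transposase-accessible chromatin with sequencing) cuts open DNA with a transposase, and local excesses of reads are called as peaks. The FGR group held 4 libraries from hippocampal microglia of mice aged 3 weeks whose growth had been restricted in the womb. The Ctrl group held 4 libraries from control mice of the same age and tissue. Mice of both groups were of genotype Tmem119-tdTomato+/-, a reporter allele that marks microglia and that the controls carry too. The labels give neither the sex nor the number of animals behind a library, nor whether libraries came from separate animals, so that the spread between libraries may be technical. The age of replicates 3 and 4 is taken from their titles.

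Peak lists held 27209, 23327, 29501 and 26246 peaks in FGR 1 to 4, against 16111, 10862, 22705 and 24195 peaks in Ctrl 1 to 4. Ctrl 1 and Ctrl 2 stood apart, with median peak widths of 566 and 522 bp against 353 to 386 bp in the other 6 libraries, and with shifted summits (the base of highest signal). FGR 1 and 3 shared an identical summit in 9.29% of their common regions and FGR 2 and 4 in 7.80%, against 1.81% to 2.21% for the other 13 pairs among FGR 1 to 4, Ctrl 3 and Ctrl 4. Ctrl 1 and 3 shared 0.00706% and Ctrl 2 and 4 shared 0.0396%, so that the shifted summits leave this unreadable for the Ctrl pairs, which were treated like the FGR pairs. Replicates 1 and 3, and replicates 2 and 4, were therefore averaged and counted as 1 sample each, so that a mean ± SD has n = 2 pairs per group. Of 15 microglia marker genes, 11 to 13 per FGR library and 6 to 12 per Ctrl library (11 to 12 in Ctrl 3 and Ctrl 4) had a peak at a gene end, with Sall1 and Tmem119 among the strongest. Of all 21887 protein-coding genes, 44.7% to 48.5% had a gene-end peak in FGR and 34.8% to 48.3% in Ctrl libraries, and the marker counts are read beside these shares. The lowest share and the lowest microglia count were both those of Ctrl 2. Aif1 and Gpr34 had no gene-end peak in any library, and P2ry12 had one in FGR 4 alone. Marker genes of other cells that carry Fc receptors had few such peaks. For border macrophages the count was 1 to 2 of 8 in FGR and 0 to 1 in Ctrl libraries. Cd163 and Lyve1 were at 0 in all 8, and Cbr2 had a peak in 4 FGR and 3 Ctrl libraries. For monocytes and neutrophils the count was 1 of 12 in each FGR and 0 to 2 in Ctrl libraries, with Ccr2 and S100a8 at 0 in all 8. The one of these markers with a peak in every FGR library was Csf3r, the receptor gene for granulocyte colony-stimulating factor, at percentiles of 60.9 to 80.6 in the 4 FGR libraries and 53.3 in Ctrl 3 alone. For B cells it was 0 to 1 of 8 in FGR and 0 to 2 in Ctrl libraries, with Ebf1 at 0 in all 8. For T and natural killer cells it was 0 to 1 of 9 in either group, and for mast cells and basophils 0 of 8 in every library. Neurons (1 to 2 of 10 in FGR, 0 to 2 in Ctrl), astrocytes (1 to 2 of 8 in both), oligodendrocyte lineage (0 to 1 of 9 in both) and endothelial and mural cells (2 of 9 in FGR, 1 to 2 in Ctrl) were as low. Of the endothelial and mural markers, Kdr had a peak in all 8 libraries, at a mean percentile of 79.3, beside 76.4 for Tmem119. Flt1 had a peak in 4 FGR libraries, at percentiles of up to 34.8, and in Ctrl 4 alone, at 28.3. The astrocyte marker Aldoc had a peak in all 8 libraries, at a mean percentile of 69.7, but none at its annotated start. The part of any other cell type in the values at the 7 genes was not tested, and in bulk libraries fewer cells with a site open and less opening per cell cannot be told apart.

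As background, the activating IgG receptors encoded by Fcgr1, Fcgr3 and Fcgr4 bear no ITAM, the tyrosine motif of activating signals, and pair with the common gamma chain, the product of Fcer1g. That chain bears an ITAM, which Src-family kinases phosphorylate and which then recruits the kinase Syk and leads to phagocytosis and cytokine release. Fcgr2b encodes the inhibitory IgG receptor, whose own ITIM motif recruits phosphatases such as the product of Inpp5d and dampens the activating signal. Tyrobp encodes the second ITAM adaptor of myeloid cells, the partner of Trem2 in microglia, and Clec5a encodes a C-type lectin-like receptor that signals through it. Microglia carry these receptors on their surface and use them to take up antibody-coated material.

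The stretch of DNA around the annotated starts of 5 of the genes is shown first, because the peaks described next lie on it or, at Clec5a, leave it out. Each line is the 300-base RefSeq window of GRCm38.p6 on the gene's own strand, from 250 bases before the start to 50 after it. Capitals mark each match, on either strand, of GAGGAA, the core of the PU.1 type of ETS site, or of AGAGGAAG, its longer form.
Fcgr1: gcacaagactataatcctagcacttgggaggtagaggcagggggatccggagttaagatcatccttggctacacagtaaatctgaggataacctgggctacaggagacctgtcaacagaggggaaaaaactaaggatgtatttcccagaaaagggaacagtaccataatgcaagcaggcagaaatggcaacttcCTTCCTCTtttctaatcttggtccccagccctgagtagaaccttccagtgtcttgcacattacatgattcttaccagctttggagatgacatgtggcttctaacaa
Fcgr3: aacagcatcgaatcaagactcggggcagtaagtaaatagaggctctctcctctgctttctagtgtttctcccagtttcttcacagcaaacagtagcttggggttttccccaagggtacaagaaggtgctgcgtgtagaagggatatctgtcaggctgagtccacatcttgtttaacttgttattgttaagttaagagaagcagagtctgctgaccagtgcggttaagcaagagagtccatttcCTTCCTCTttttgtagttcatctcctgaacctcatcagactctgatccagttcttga
Fcgr4: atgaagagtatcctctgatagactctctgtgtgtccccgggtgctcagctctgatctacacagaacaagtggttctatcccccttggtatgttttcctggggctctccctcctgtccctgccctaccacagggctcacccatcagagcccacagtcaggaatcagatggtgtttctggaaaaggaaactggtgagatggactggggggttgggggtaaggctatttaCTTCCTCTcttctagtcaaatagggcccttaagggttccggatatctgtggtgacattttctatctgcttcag
Fcgr2b: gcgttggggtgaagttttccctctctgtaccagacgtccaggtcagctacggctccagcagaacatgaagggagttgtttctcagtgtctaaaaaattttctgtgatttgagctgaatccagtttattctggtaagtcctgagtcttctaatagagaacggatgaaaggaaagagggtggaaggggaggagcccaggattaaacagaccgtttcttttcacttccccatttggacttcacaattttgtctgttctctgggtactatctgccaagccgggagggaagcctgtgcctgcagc
Clec5a: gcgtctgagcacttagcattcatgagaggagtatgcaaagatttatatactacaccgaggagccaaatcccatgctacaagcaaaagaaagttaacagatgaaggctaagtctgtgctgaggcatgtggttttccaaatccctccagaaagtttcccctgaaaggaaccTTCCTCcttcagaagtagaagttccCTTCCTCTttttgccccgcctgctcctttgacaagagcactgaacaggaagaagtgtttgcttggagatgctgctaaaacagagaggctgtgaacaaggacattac
Both letter strings were chosen after the sequences had been seen, and a match describes the letters and not a bound site. The longer string occurred in 4 of the 6 windows available, Fcgr1, Fcgr3, Fcgr4 and Clec5a, and in 4.43% of 21263 windows of protein-coding genes, and the core occurred in the same 4 windows and in 27.4% of all windows. In all 4 windows the longer string lay on the opposite strand, so that the gene's own strand read CTTCCTCT. Counted from the start base as 0, it spanned -56 to -49 at Fcgr1 and Clec5a, -23 to -16 at Fcgr4 and -7 to 0 at Fcgr3. The core overlaps it by construction, and Clec5a held a second core at -81 to -76. The windows of Fcgr2b and Fcer1g held neither string. Among 4 other strings searched on both strands, TTCNNNGAA (the STAT site, in 7.69% of windows) occurred at Fcgr1 from -109 to -101. An ISRE-like string, the site of IRF factors, occurred at Fcgr4 and in 3.35% of windows, and TTGCNNAA (a C/EBP-like site, 10.2%) occurred at Fcgr3. TGANTCA (AP-1, 6.99%) occurred in none of the 6 windows.

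Peaks of all 8 lists were merged into 52251 union regions. Of these, 34 reached into the loci of the 7 genes, a locus being the gene with 20 kb added at either end. A merged region counts if any part of it lies in a locus, whereas peak numbers per locus count only peaks that themselves reach into it. Of the 34 regions, 14 were called in all 8 libraries, 20 in all 4 FGR libraries and 14 in all 4 Ctrl libraries. Across the series the shares were 16.9% in all 8 libraries, 27.9% in all 4 FGR libraries and 17.7% in all 4 Ctrl libraries. A single library held 7 of the 34, and 45.9% of all regions. Just 1 region was called in 4 FGR and 0 Ctrl libraries, against 0.869% of regions in the series, and 0 regions showed the reverse, against 0.0268%. Since the genes were proposed on this contrast, nothing is read from that count.

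**Figure D1:**
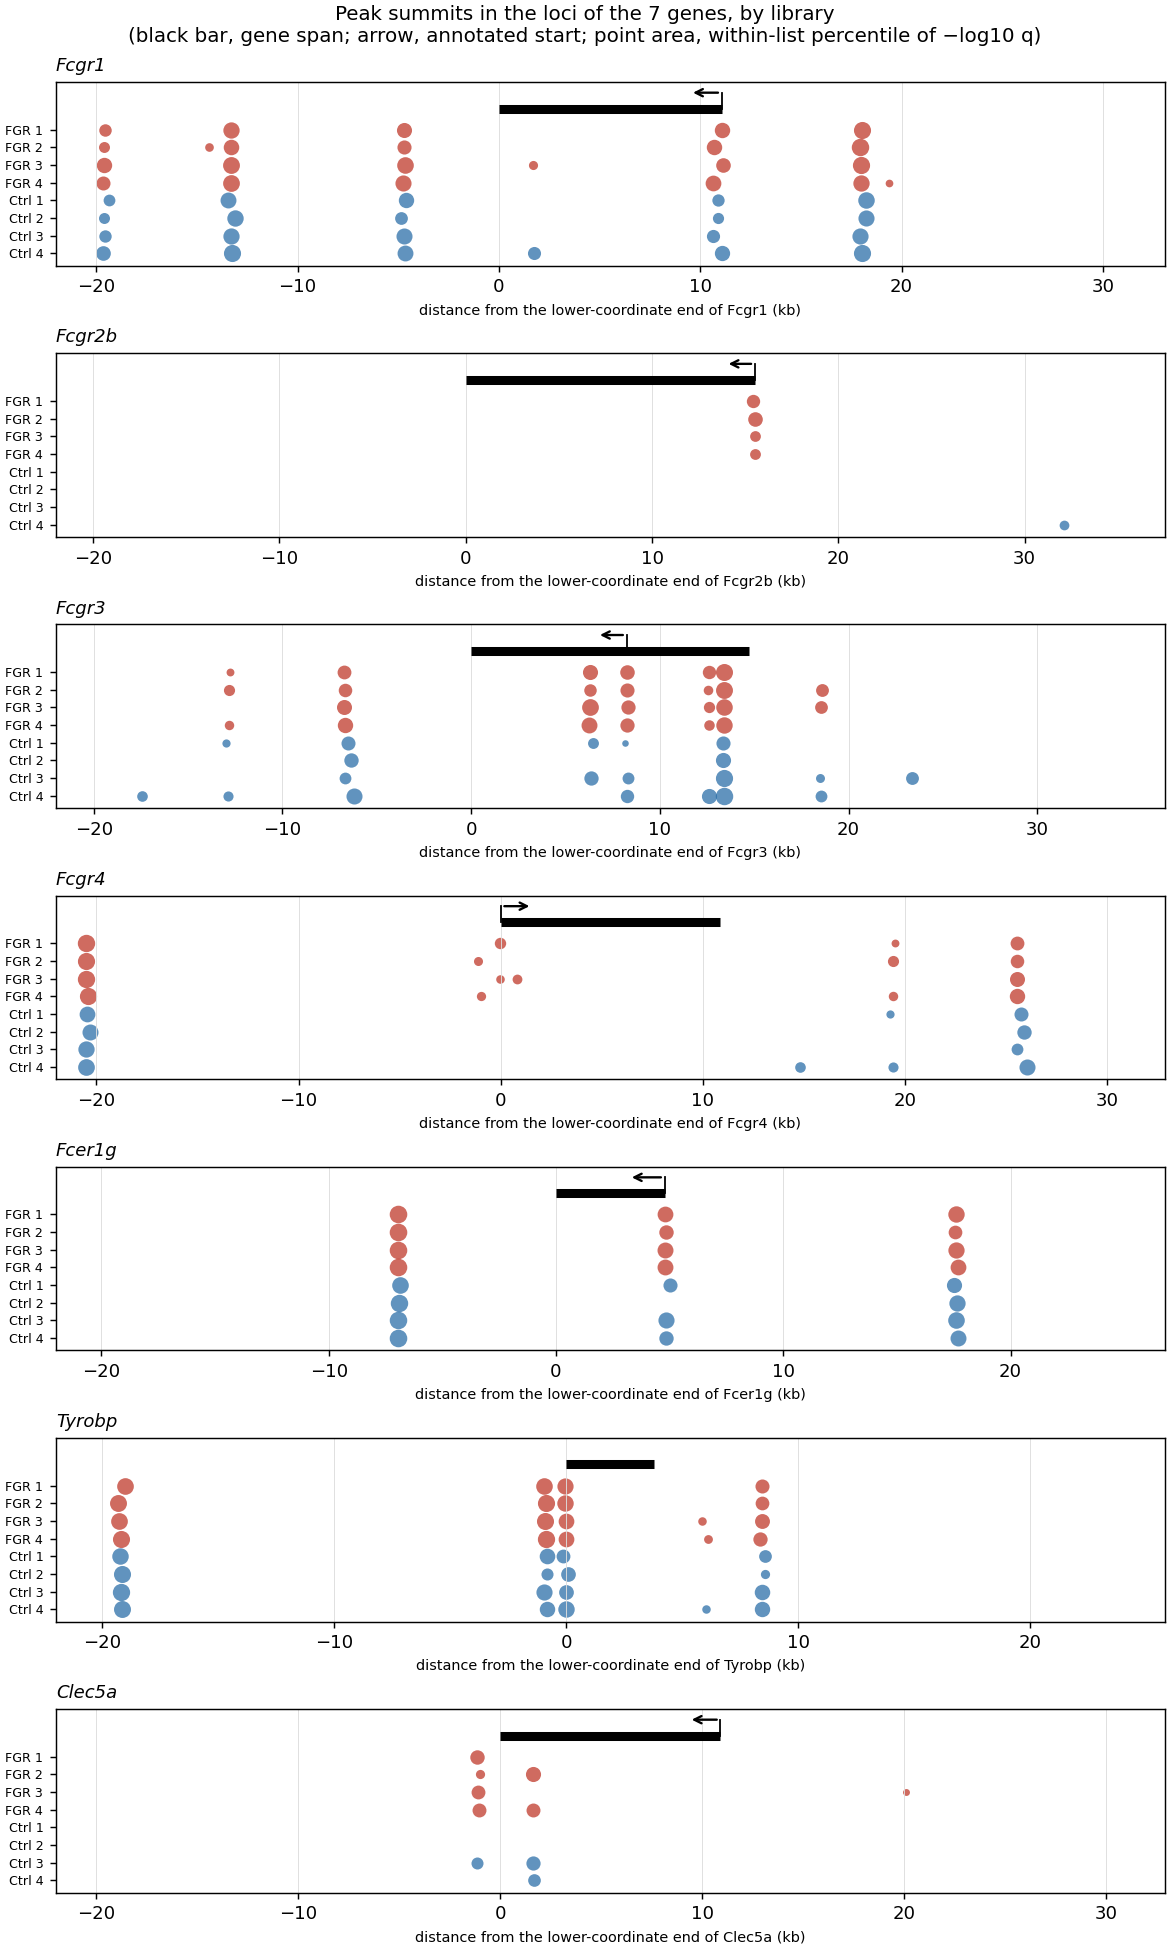
Summit of the strongest peak of each library in each union region of the 7 loci, 1 row per library (FGR in red above Ctrl in blue). The horizontal axis is the distance in kb from the end of the gene with the lower coordinate. The black bar is the gene, the arrow its annotated start where given, and the point area the within-list percentile. Further peaks of a library in the same region are not drawn. Columns of points in all 8 rows mark the 14 regions called throughout, and the single column with 4 red and 0 blue points lies at the start of Fcgr2b.

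The strength of a peak is given in 2 ways. The within-list percentile is the rank of a peak's −log10 q among the peaks of its own library, from 0 to 100, and since lists differ in length a percentile shows no change between libraries on its own. The summit pileup is the number of extended reads over the summit, derived from the fold and −log10 p that the authors give for the peak, and it is not scaled for depth. The smallest called pileup was 12 to 14 reads in FGR libraries and 11 to 16 reads in Ctrl libraries. The lowest local background was 3.52 to 4.82 extended reads per base in FGR libraries and 3.01 to 6.05 in Ctrl libraries.

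Fcgr2b, the gene of the inhibitory receptor, lies at chr1:170960558-170976071 on the minus strand and had the sparsest locus of the 7. Its start carried a region, chr1:170975856-170976262, with a peak in each FGR library and in no Ctrl library. The pileup there was 23, 29, 23 and 24 reads in FGR 1 to 4, at percentiles of 53.8, 66.1, 32.9 and 33.3. These peaks were of modest strength, and FGR 2 was the highest on both measures. Summits lay 92 bp downstream of the start in FGR 1 and 23, 36 and 31 bp upstream of it in FGR 2 to 4, the last 3 of them within the window printed above. The smallest pileup called anywhere in the genome was 14, 11, 13 and 16 reads in Ctrl 1 to 4. The Ctrl pileup at this start is not known, so these values do not show whether a peak could have been called there. Among the 454 regions of the series with the same presence pattern, the lowest percentile in an FGR library had a median of 21.6, and 321 of the 454 lay at or below the 32.9 of this region. When every list was shortened to its 10862 strongest peaks, the length of the shortest list, the region was called in 1 FGR and 0 Ctrl libraries. The only other region of the locus, 16627 bp upstream of the start, was called in Ctrl 4 alone, with a pileup of 27 reads.

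Fcgr4, an activating receptor gene at chr1:171018926-171029761 on the plus strand, also had a peak within 1 kb of its start in 4 FGR and 0 Ctrl libraries, but not in the same place. FGR 1 and FGR 3 had peaks on the start itself, chr1:171018786-171018986, with summits 31 and 36 bp upstream and pileups of 21 and 22 reads. FGR 2 and FGR 4 had none there and instead had peaks in chr1:171017664-171018030, with summits 1129 and 968 bp upstream and pileups of 18 and 22 reads. The split followed the pairs of FGR libraries that share summits. A further peak 782 bp inside the gene was called in FGR 3 alone, with 23 reads. All 5 peaks were weak, at percentiles between 18.5 and 37.6, and in the shortened lists 0 of these 3 regions was called in any library.

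The strongest region near Fcgr2b and Fcgr4 lay between them and was called in all 8 libraries. It covers chr1:170998001-170999120, with its median summit 20507 bp upstream of the Fcgr4 start and 22348 bp upstream of the Fcgr2b start, and it overlaps no annotated gene. Its pileup was 64, 59, 72 and 71 reads in FGR 1 to 4, against 50, 32, 52 and 61 reads in Ctrl 1 to 4, so that FGR 2 lay below Ctrl 4. Its percentile was 96.2, 93.6, 95.3 and 94.1 in FGR 1 to 4, against 78.1, 80.8, 83.8 and 88.5 in Ctrl 1 to 4. On the percentile scale the groups did not overlap. Of the 8 libraries, only Ctrl 4 had a peak there that itself reached into the Fcgr4 locus.

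Fcgr3, the low-affinity activating receptor gene at chr1:171051169-171065915 on the minus strand, had peaks at several places along its body. The annotation puts its start inside the span, at position 171059403 with an alternative 9 bp away, and a region there, chr1:171059016-171059624, was called in 4 FGR and 3 Ctrl libraries. Pileup at the start was 37, 36, 41 and 42 reads in FGR 1 to 4, against 27, 31 and 36 reads in Ctrl 1, 3 and 4, and Ctrl 2 had no peak. Percentiles were 65.4, 61.1, 62.5 and 62.7 in FGR 1 to 4, against 8.03, 41.5 and 54.2 in Ctrl 1, 3 and 4. FGR libraries were thus alike there, whereas the Ctrl libraries that had a peak were spread. In the shortened lists the start region was called in 3 FGR and 0 Ctrl libraries. A region 1927 bp downstream of the start, chr1:171057271-171057728, was called in 4 FGR libraries, at 38, 30, 58 and 49 reads, and in Ctrl 1 and Ctrl 3, at 30 and 36 reads. Another, 4374 bp upstream of the start, was called in 4 FGR libraries at 25 to 30 reads and in Ctrl 4 alone at 42 reads, the highest value there. The strongest region of the gene, chr1:171064324-171064843, was called in all 8 libraries 5175 bp upstream of the start, over the annotated Mir6546 and a tRNA gene. It had 47, 46, 47 and 44 reads in FGR 1 to 4, against 34, 26, 55 and 63 reads in Ctrl 1 to 4, so that the Ctrl libraries enclosed the FGR values. Its summits in the 6 libraries other than Ctrl 1 and 2 fell within 12 bp.

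The loci of Fcgr3 and Fcgr4 overlap and hold 20 and 5 annotated tRNA genes. Of the 34 regions, 4 overlapped a tRNA gene. One of these, chr1:171044288-171045228, was called in all 8 libraries at percentiles of 55.6 to 73.9 in FGR and 40.8 to 81.1 in Ctrl libraries. Which gene such a region serves cannot be read from its position.

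Fcgr1, the high-affinity IgG receptor gene at chr3:96282909-96293969 on the minus strand, had a peak within 1 kb of its start in all 8 libraries, although in Ctrl 1 and Ctrl 2 no peak covered the start base itself. The region spans chr3:96293205-96294311. Its highest pileup was 34, 36, 34 and 45 reads in FGR 1 to 4, against 29, 21, 30 and 41 reads in Ctrl 1 to 4. Percentiles were 74.2, 74.4, 66.0 and 77.9 in FGR 1 to 4, against 44.9, 35.9, 52.4 and 72.8 in Ctrl 1 to 4. Ctrl 4 lay among the FGR libraries on both scales. The signal was broad, since the highest summits ran from 62 bp upstream to 410 bp downstream of the start and Ctrl 1 and Ctrl 4 split it into 3 and 2 peaks. A stronger region, chr3:96300566-96301594, lay 6930 bp upstream with 49, 60, 56 and 50 reads in FGR 1 to 4, against 46, 32, 44 and 62 reads in Ctrl 1 to 4. Downstream of the gene, 3 more regions were called in all 8 libraries, over the histone gene H4c14, over the histone genes H3c13 and H2bc18, and in a stretch with no annotated gene.

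**Figure D2:**
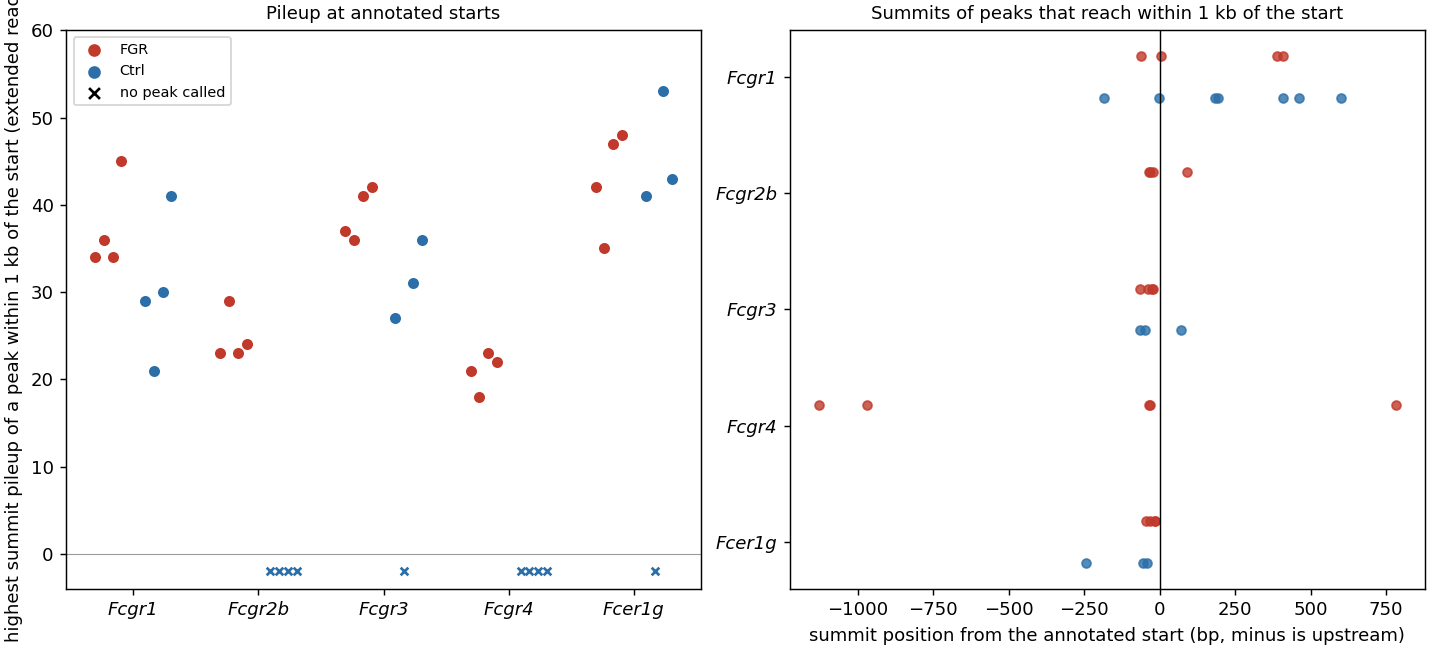
Left, the highest summit pileup in extended reads of a peak reaching within 1 kb of the annotated start, 1 point per library (FGR in red left of Ctrl in blue), with crosses below 0 where no peak was called. Right, the summit positions of all such peaks in bp from the start. Fcgr2b and Fcgr4 have points in the 4 FGR libraries only, at 18 to 29 reads, and the Fcgr4 summits are scattered over 3 regions.

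Fcer1g, the gene of the common gamma chain at chr1:171229572-171234349 on the minus strand, had a peak at its start, chr1:171234164-171234812. Pileup was 42, 35, 47 and 48 reads in FGR 1 to 4, against 41, 53 and 43 reads in Ctrl 1, 3 and 4, and no peak was called in Ctrl 2. Percentiles were 78.3, 64.2, 80.2 and 79.3 in FGR 1 to 4, against 60.9, 82.1 and 63.7 in Ctrl 1, 3 and 4. The groups overlapped on both scales, with the highest value in Ctrl 3. Summits lay 14 to 45 bp upstream of the start in FGR libraries and 43 and 54 bp upstream in Ctrl 4 and Ctrl 3, but 243 bp upstream in Ctrl 1. In the shortened lists the peak remained in 4 FGR and 3 Ctrl libraries. The strongest region of the locus, and of all 34 by percentile, was not at Fcer1g but over the neighbouring Tomm40l and Apoa2, at 98.4 to 98.8 in FGR and 87.6 to 98.7 in Ctrl libraries.

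Tyrobp lies at chr7:30413782-30417582, and its start and strand are not used here. The region over its lower-coordinate end, chr7:30413495-30414139, was called in all 8 libraries. Pileup was 56, 60, 58 and 63 reads in FGR 1 to 4, against 55, 38, 56 and 72 reads in Ctrl 1 to 4, so that Ctrl 2 was lowest and Ctrl 4 highest. A second region next to it, chr7:30412461-30413289, had 58, 68, 74 and 83 reads in FGR 1 to 4, against 62, 32, 65 and 61 reads in Ctrl 1 to 4. Its percentiles were 87.4, 93.5, 92.4 and 94.9 in FGR 1 to 4, against 76.4, 43.0, 82.4 and 74.6 in Ctrl 1 to 4. The groups did not overlap in percentile, but they did in pileup, where Ctrl 1 and Ctrl 3 lay above FGR 1. Both regions also overlap the annotated non-coding gene Gm32029. The locus held 2 more regions called in all 8 libraries, over the non-coding gene Gm42376 and over Nfkbid, an inhibitor of NF-kappaB signalling. Hcst, the neighbouring adaptor gene, had a weak peak in FGR 3, FGR 4 and Ctrl 4, at percentiles of 18.1 and 19.9 in FGR and 17.9 in Ctrl.

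Clec5a, at chr6:40574898-40585805 on the minus strand, had no peak within 1 kb of its annotated start in any library, although the window there holds the same longer string as Fcgr1. Its peaks lay at the other end. A region just past the 3′ end, chr6:40573535-40574019, was called in 4 FGR libraries, at 24, 19, 26 and 30 reads, and in Ctrl 3 at 23 reads. FGR percentiles were 64.3, 22.1, 58.8 and 59.5, against 42.7 in Ctrl 3, so that FGR 2 was the lowest of the 5. FGR peaks reached 23, 85, 93 and 122 bp into the 1 kb window around the gene end, whereas the Ctrl 3 peak ended 37 bp short of it. The count of 4 FGR and 0 Ctrl libraries at this gene end thus rests on where that window is set. A region inside the gene, chr6:40576367-40576720, was called in FGR 2 and FGR 4 at 29 and 30 reads, and in Ctrl 3 and Ctrl 4 at 27 reads each. In the shortened lists the region past the 3′ end was called in 2 FGR and 0 Ctrl libraries.

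**Figure D3:**
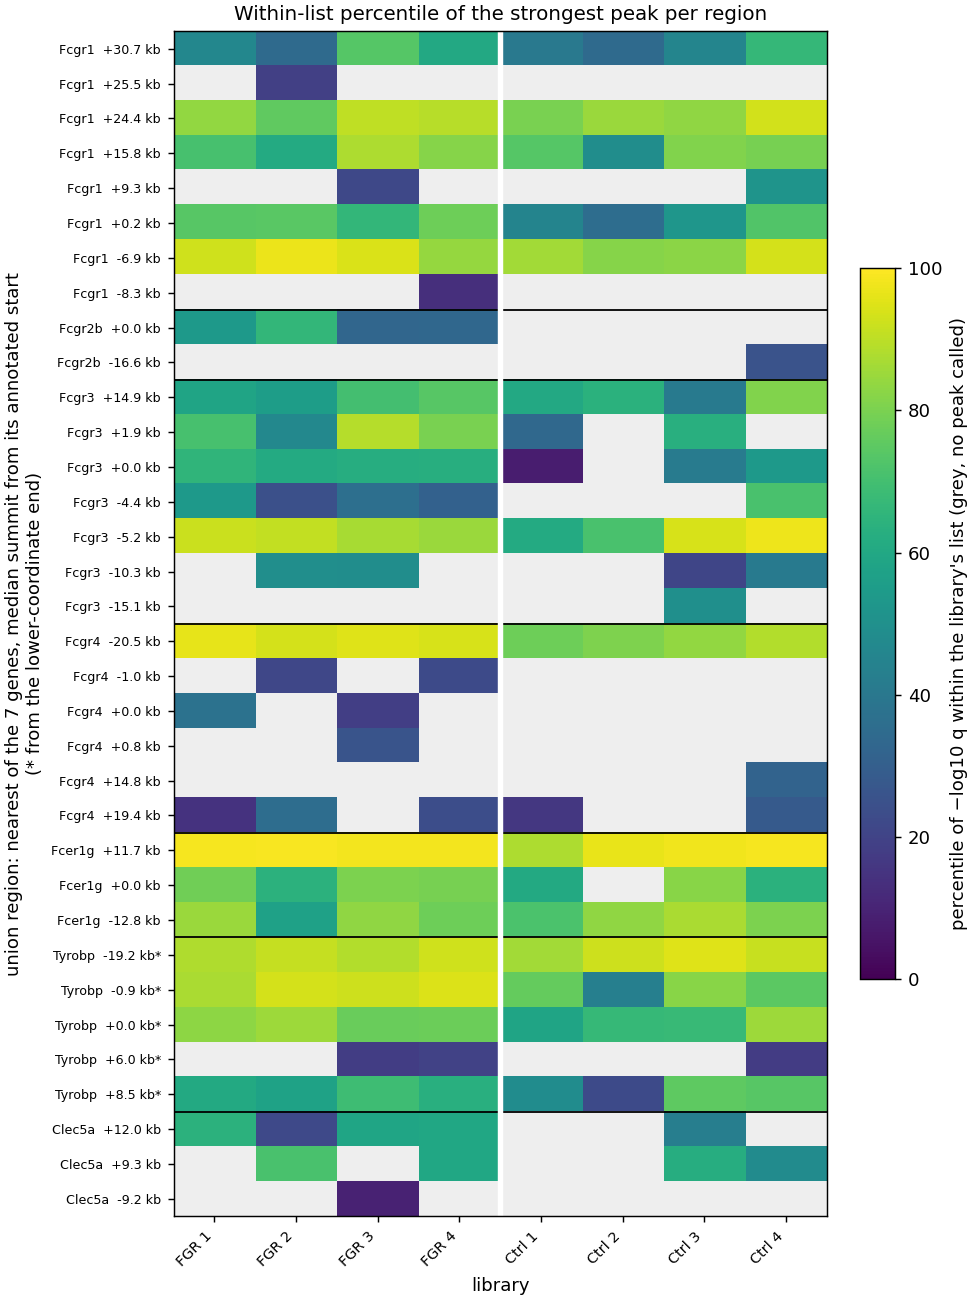
Within-list percentile of −log10 q (colour, 0 to 100) of the strongest peak in each of the 34 union regions (rows, grouped by the nearest of the 7 genes and labelled with the distance of the median summit in kb) and each library (columns, FGR left of Ctrl). Grey means that no peak was called; the grey cells gather in Ctrl 1 and Ctrl 2 and in the weak regions of Fcgr4 and Clec5a.

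Over the 7 genes, a gene-end peak (a peak within 1 kb of either annotated end) was present in 4 FGR and 0 Ctrl libraries at 3 genes, Fcgr2b, Fcgr4 and Clec5a. In the series this held for 37 of 21887 genes, or 0.169%, and the reverse pattern for 0.0228%, seen at 0 of the 7. At annotated starts alone the pattern held at Fcgr2b and Fcgr4, against 0.194% of 17492 genes with a start, and the reverse for 0.0172%. The genes were proposed on these values, so the counts carry no test. Each FGR library had a gene-end peak at 6 of the 7 genes, against 3, 2, 3 and 3 in Ctrl 1 to 4. Of all genes, 44.7% to 48.5% had one in FGR and 34.8% to 48.3% in Ctrl libraries. Fcgr3 had no gene-end peak in any library, although its annotated start, which lies inside its span, had a peak in 4 FGR and 3 Ctrl libraries. The FGR peaks behind the pattern at Fcgr2b, Fcgr4 and Clec5a had pileups of 18 to 30 reads. With peaks of −log10 q of at least 5 alone, or with the shortened lists, 0 of the 7 genes showed the pattern, and with a window of 500 bp only Fcgr2b did.

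Of the 14 regions called in all 8 libraries, 2 had every FGR percentile above every Ctrl percentile, the region between Fcgr2b and Fcgr4 and the one next to Tyrobp, and 0 had the reverse. Over all such regions of the series the shares were 9.90% and 0.632%. By summit pileup 0 of the 14 were separated in either direction, against 1.92% and 0.0339% in the series. These counts, too, use the values on which the genes were proposed, and nothing is read from them.

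The number of peaks per locus, which weighs weak and strong peaks alike, ranged from 0 to 7. Fcgr1 had 5, 6, 6 and 6 peaks in FGR 1 to 4, against 7, 5, 5 and 7 in Ctrl 1 to 4. Fcgr3 had 6, 7, 6 and 6 peaks in FGR 1 to 4, against 5, 2, 6 and 7 in Ctrl 1 to 4. Tyrobp had 5, 4, 6 and 6 peaks in FGR 1 to 4, against 4, 4, 4 and 6 in Ctrl 1 to 4. In these 3 loci the groups overlapped. Fcgr4 had 3 peaks in each FGR library, against 2, 1, 1 and 4 in Ctrl 1 to 4. The Ctrl 4 count includes its peak in the region between Fcgr2b and Fcgr4. Every other library had a peak in that region too, but short of the locus edge and so not counted. The Fcgr4 count of Ctrl 4, and values derived from it, thus rest on where that edge is set. Fcer1g had 3 peaks in each library except Ctrl 2, with 2. Fcgr2b had 1 peak in each FGR library, against 0, 0, 0 and 1 in Ctrl 1 to 4, where the Ctrl 4 peak is not the one at the start. Clec5a had 1, 2, 2 and 2 peaks in FGR 1 to 4, against 0, 0, 2 and 1 in Ctrl 1 to 4. Ctrl 3 thus matched the highest FGR library at Clec5a.

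Divided by list length, the order of the group means turned at Fcgr3, Fcer1g and Tyrobp, which were higher in FGR by number and lower per 10000 peaks. With overlapping loci merged, the 7 genes held 22, 24, 26 and 25 peaks in FGR 1 to 4, against 19, 13, 20 and 26 peaks in Ctrl 1 to 4. The means were 24.3 ± 0.354 in FGR and 19.5 ± 0 in Ctrl libraries (SD, n = 2 pairs each), a ratio of 1.24, and the Ctrl SD of 0 means only that the pairs have equal means, since over single libraries it was 5.32. Per 10000 peaks of the list they held 9.18 ± 1.03 in FGR and 10.8 ± 0.747 in Ctrl libraries, a ratio of 0.848. The sign of the difference therefore depends on the scale. Per 10000 peaks, the Fcgr1 locus held 2.18 ± 0.349 in FGR against 3.51 ± 0.336 in Ctrl libraries, and Clec5a 0.666 ± 0.203 in FGR against 0.324 ± 0.165 in Ctrl libraries (SD, n = 2 pairs each). The ratio of FGR to Ctrl at Clec5a, 2.06 over all libraries, was 1.03 without Ctrl 1 and Ctrl 2, 4.84 without Ctrl 3 and 4 with equal-length lists, so that it rests on single Ctrl libraries. At Fcgr1 the ratio, 0.622 over all libraries, was 0.857 without Ctrl 1 and Ctrl 2 and 0.947 with equal-length lists. At Fcgr4 the ratio was 1.07 with 20 kb flanks and 4.49 with 5 kb flanks. The 5 kb flanks leave out 2 regions over tRNA genes. These are chr1:171044288-171045228, called in all 8 libraries, and chr1:171038036-171038786, called in 3 FGR and 2 Ctrl libraries. They also leave out the region between Fcgr2b and Fcgr4, of which only the Ctrl 4 peak counted with 20 kb flanks.

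**Figure D4:**
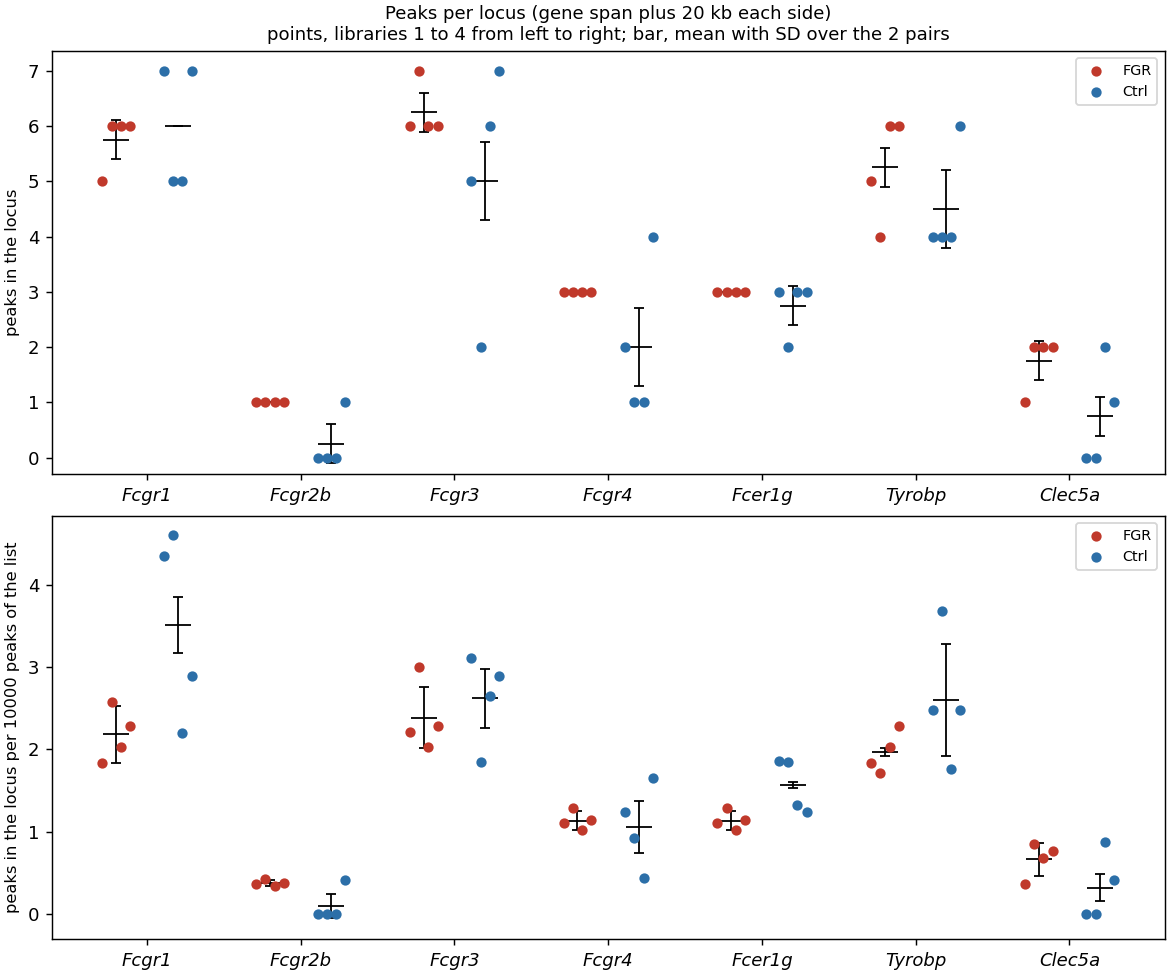
Peaks per locus as numbers (top) and per 10000 peaks of the library's list (bottom) for the 7 genes; points are libraries 1 to 4 (FGR in red left of Ctrl in blue), bars are means with SD over the 2 pairs of libraries. The means of Fcgr2b and Clec5a are higher in FGR on both scales, while that of Fcgr1 is lower in FGR per 10000 peaks.

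A fit over all loci gave the background for these counts. limma, run on the log2 share of peaks (pseudocount 0.5, per 10000) with its trend option, tested the 8037 loci that averaged 2 or more peaks and called 1 of them at an adjusted p (Benjamini-Hochberg) under 0.05, which is 0.0124%, and it was higher in FGR. This fit takes the 8 libraries as separate samples, and with the pairs averaged it called 0 loci. At an unadjusted p under 0.05 there were 209 loci higher and 1256 lower in FGR. The median log2 difference (FGR minus Ctrl) over all loci was -0.28, so that single differences are read beside it. Of the 7 genes, 5 passed the filter, without Fcgr2b and Clec5a, and 0 of the 5 were called. Because the genes were proposed on these peak numbers, neither that count nor the differences that follow are a test of them. Log2 differences (FGR minus Ctrl, ± SE) were 0.05 ± 0.30 at Fcgr4, -0.18 ± 0.21 at Fcgr3, -0.38 ± 0.23 at Tyrobp, -0.47 ± 0.25 at Fcer1g and -0.63 ± 0.22 at Fcgr1. With equal-length lists the differences were -0.07 at Fcgr1, 0.12 at Fcer1g and 0.33 at Fcgr3, and without Ctrl 1 and Ctrl 2 that of Fcgr1 was -0.22, so that the sign turned at Fcer1g and Fcgr3 and the difference at Fcgr1 shrank. On neither scale did a tested gene of the 7 have all FGR libraries above or below all Ctrl libraries. In the series 4.12% of loci were separated upward and 0.0124% downward by number of peaks, and 1.46% and 5.80% per 10000 peaks.

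For each gene the 2 protein-coding genes most like it were sought by the mean absolute difference, over 8 libraries, of the percentile of the strongest gene-end peak. The nearest to Fcgr4 were Erich6, at 2.12 percentile points, and Cox6b2, at 3.77 and with a weak peak in 2 Ctrl libraries, and to Tyrobp Nars at 2.44 and Saysd1 at 2.59. Fcer1g was nearest to Ppp1r3f at 2.51, whose peak was likewise missing in Ctrl 2 alone, and to Lysmd4 at 3.91, which had a peak in all 8 libraries. Clec5a was nearest to Prr15l at 3.35 and Pqlc3 at 3.50, both with a peak in 4 FGR and 0 Ctrl libraries. Fcgr1 was nearest to Camk1d at 4.49 and D230025D16Rik at 4.81, and Fcgr2b, the least closely matched, to 4930548H24Rik at 6.48 and Shfl at 6.57, each with a weak peak in 1 Ctrl library. Fcgr3 had no gene-end peak and was not compared.

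Of 13 other Fc receptor genes, 2 had a gene-end peak in all 8 libraries and 7 in none, Fcamr and Fcer1a among these. Over all 21887 protein-coding genes, 31.9% had one in all 8 libraries, and the counts of this list and those below are read beside that share. Fcgrt, the neonatal Fc receptor that protects IgG from breakdown, was strongest with a mean percentile of 71.5 over 8 libraries, then Trim21, a cytosolic antibody receptor, with 53.6, and the microglial Fc receptor-like gene Fcrls with 51.6. Fcrlb had a peak in 3 FGR and 0 Ctrl libraries, at percentiles of 28.2, 20.3 and 3.10 in FGR 1, 2 and 4. Differences of at least 3 libraries occurred in 1.21% of all genes in the FGR direction and in 0.174% in the Ctrl direction. Per library, 3 to 6 of the 13 had a gene-end peak in FGR and 2 to 4 in Ctrl libraries.

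Among 14 matched genes for receptors that pair with Tyrobp or Fcer1g and for Hcst, Cd300c2 alone had a gene-end peak in all 8 libraries, and 6 had none in any, such as Cd300lb and Clec4e. Per library, 6 to 7 had one in FGR and 2 to 6 in Ctrl libraries. Trem2, the microglial lipid receptor, averaged a percentile of 52.9 with a peak in 4 FGR and 3 Ctrl libraries, and Siglech, a microglial lectin, 51.4 with a peak in 4 FGR and 2 Ctrl libraries. At Siglech, Ctrl 1 and Ctrl 2 were the libraries without a call. None of the 14 differed by 3 or more libraries.

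The 22 signalling genes downstream of ITAM receptors had the largest share of the lists, with a gene-end peak in all 8 libraries at 9 and in none at 1, Lat2. The share with a gene-end peak in all 8 libraries was 31.9% over all genes, and no list was tested against it. Per library, 17 to 18 had one in FGR and 12 to 19 in Ctrl libraries. Strongest were the phosphoinositide kinase genes Pik3r1, at a mean percentile of 89.4, and Pik3cd, at 81.3, and the ubiquitin ligase gene Cbl, at 80.2. Of 17 inhibitory receptors and phosphatases, the side of Fcgr2b, 4 had a gene-end peak in all 8 libraries and 6 in none, with 8 to 10 per FGR library and 4 to 8 per Ctrl library. Cd300a, an ITIM receptor, led with 77.5, before Siglece with 73.2 and the adaptor gene Dok2 with 58.4. Cd22 and Cd33 had no gene-end peak, but the measure misses starts that lie inside a span. Of the 6 without a gene-end peak, Cd33 and Csk had a peak at the annotated start in all 8 libraries and Dok3 in 4 FGR and 3 Ctrl libraries. At gene ends no gene of the 4 lists other than Fcrlb differed by 3 or more libraries, and at annotated starts Siglece did, with a peak in 3 FGR and 0 Ctrl libraries.

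In the fit over all loci, 0 genes of the 4 lists were called by limma, of 5, 5, 21 and 13 tested in the order above, and 1, 0, 3 and 2 had an unadjusted p under 0.05. Their median log2 differences (FGR minus Ctrl) were 0.08, -0.47, 0.03 and -0.27, beside -0.28 over all loci. These medians rest on few loci and were not tested against each other.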

How the data were processed

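ATAC-seq peak lists of 8 libraries were used, 4 FGR and 4 Ctrl. The submitters' processing notes name MACS2 2.2.7.1 and DiffBind 3.12.0, the aligner Bowtie2 2.4.5 with SAMtools 1.3.1, Trim Galore 0.6.5, and the build mm10. Not given in the sources used here are their settings and whether reads were shifted, deduplicated or filtered by a blacklist. Each library has its own list, so peaks were called by the authors per library. The deposited score is a display value and was not used. The deposited fold is a ratio, the summit pileup over its local background. The authors' p-values and q-values stand in the lists as −log10 p and −log10 q, and the second served to rank peaks within a list. The deposited summit offset gave summit positions.

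The whole-number pileup was solved from fold and −log10 p of each peak by a Poisson tail, for 100% of peaks within 0.001. Read totals are not used here, and counting error was not modelled for single peaks. Regions merged peaks sharing at least 1 bp. Gene spans, starts and promoter windows came from RefSeq (GRCm38.p6), with 6 of the 7 genes matched in the promoter table. Peaks per locus were fitted with limma 3.58.1 in R 4.3.3 and checked on simulated data. The rest was done in Python 3.11.15 (pandas 2.3.3, numpy 2.4.6, scipy 1.17.1) with figures in matplotlib 3.10.9.

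The genes and all lists were chosen with earlier results of these data known. All 7 genes are named whatever their values. Of the lists, the text names genes whose gene-end peak differs by 3 or more libraries, up to 3 with the highest mean percentile and up to 2 without a peak. Alternatives were −log10 q of at least 5, equal-length lists, each library left out, Ctrl 1 and 2 left out, replicates 3 and 4 only, other flanks, windows, pseudocounts and filters, a replicate block and averaged pairs. Replicates 1 and 2 only, and starts alone, were added after seeing the data. Clec6a was not matched. Some items that the naming rule would take are not reported here.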

Additional observations from a re-analysis of the deposited data

Results flagged for a closer look

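A gap test marked samples far from the other 3 of their group, by Dixon's rule for 4 samples, in 5 of 84 groups of values tested. The rule's rate of about 1 in 20 is for separate, continuous values. Pileups and peak counts are whole numbers, and pileup and percentile of the same peaks were both tested, so the 5 are not compared with that rate. At the start of Fcgr2b (chr1:170975856-170976262), FGR 2 had the highest pileup with 29 reads, against 23 to 24 in the other 3 FGR libraries. At the start of Fcer1g (chr1:171234164-171234812), FGR 2 had the lowest percentile with 64.2, against 78.3 to 80.2 in the other 3 FGR libraries. Past the 3′ end of Clec5a (chr6:40573535-40574019), FGR 2 was again lowest with a percentile of 22.1, against 58.8 to 64.3. Beside Tyrobp (chr7:30412461-30413289), Ctrl 2 had the lowest pileup with 32 reads, against 61 to 65 in the other 3 Ctrl libraries. In the Fcgr2b locus, Ctrl 4 alone among the Ctrl libraries had a peak, at 0.413 per 10000 peaks against 0 in the other 3, a pattern that the rule marks whatever the value. FGR 2 and Ctrl 2 have the shortest lists of their groups, with 23327 and 10862 peaks, and the part of list length in these gaps was not tested.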

How the results depend on the processing

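The count of loci called by limma, 1 in the fit reported, was 20 with equal-length lists, 57 with a pseudocount of 1, 16 without the filter, 3 with 5 kb flanks and 9 with replicates 1 and 2 only. It was 0 without Ctrl replicates 1 and 2, with replicates 3 and 4 only and with averaged pairs. Leaving out 1 library gave 0 to 15, the highest without Ctrl 3. As deviations from the group mean at each locus, same-numbered FGR and Ctrl libraries correlated at -0.02 to 0.10. On the same measure FGR 1 and 2 correlated best with Ctrl 2, and FGR 3 and 4 with Ctrl 4. A replicate block gave 141 calls. Of the 7 genes, 3 to 7 were tested per setting (5 in most, and Fcgr2b and Clec5a only without the filter), and 0 were called in any setting run. Nothing is read from that, since the genes were proposed on these values. The number of regions in 4 FGR and 0 Ctrl libraries was 1 of 34 in the 7 loci, beside 454 of 52251 in the series. With −log10 q of at least 5 it was 0 of 27, beside 344 of 28478. With equal-length lists it was 0 of 21, beside 128 of 17726. Where libraries were left out, the pattern asked for a peak in each FGR library kept and for none in the Ctrl libraries kept. With replicates 1 and 2 only, this held for 3 of 25 regions in the 7 loci, beside 3041 of 34654 in the series. Leaving out 1 library gave 1 to 2, with 2 without Ctrl 3 (the region past the 3′ end of Clec5a joins) or without Ctrl 4 (the one 4374 bp upstream of the Fcgr3 start joins). The count of genes with the same pattern at a gene end, 3, was 0 with −log10 q of at least 5, 0 with equal-length lists and 1 with a 500 bp window, and stayed 3 with each library left out. The reverse counts were 0 in every setting run. The ratio of FGR to Ctrl peaks per 10000 in the 7 loci, 0.848, was 1.10 with equal-length lists, 0.952 with 5 kb flanks and 1.24 as number of peaks, and 0.798 to 0.881 with a library left out. Of 86 alternatives for single genes in limma, 77 stayed within the SD of a single library in the fit reported, and 9 moved. That limit is wider than the SE printed beside each difference. Of 99 alternatives for single ratios, 80 stayed within the pooled relative SD between libraries of a group, and 19 moved. The cause of these shifts was not tested. What depth limits could not be measured, since read totals were not used.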
